A study of Homo sapiens with 4 samples.

Results

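Ribosome footprints over CTNNB1, which encodes beta-catenin, and 9 further genes of the Wnt pathway were compared between 2 human cell lines at the level of single splice junctions. The 10 genes are CTNNB1, AXIN1, APC, LEF1, TCF7L2, AXIN2, NKD1, LGR5, TBX3 and GLUL. They were taken by Ensembl identifier from a table of 35189 genes with junctions of their own, and they hold 194 of the 344830 junctions that belong to 1 gene. The choice used no measured value, although it was made with earlier results of these data known. HepG2 cells come from a tumor of the liver and resemble hepatocytes. K562 cells come from a chronic myelogenous leukemia and resemble early red cells. Neither line received a treatment per the labels, and cycloheximide, which arrests elongating ribosomes, was in the lysis buffer of all samples. Each line has 2 samples, whose junction reads were deposited as 1 pooled table.

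Beta-catenin is held low by a destruction complex built on the scaffolds AXIN1 and APC, in which kinases phosphorylate serines and a threonine near its amino end and so mark it for degradation. A Wnt signal stops this, and beta-catenin then enters the nucleus, joins TCF and LEF factors and activates target genes, some of which act back on the pathway. In the liver, the pathway is known for its activity in hepatocytes around the central vein, and many liver tumors carry CTNNB1 mutations. HepG2 is known to carry, on 1 of its alleles, a deletion that starts within exon 3 and ends within exon 4 and leaves the reading frame intact. The boundary between exons 3 and 4 lies inside that stretch, whereas the boundary of exons 2 and 3 and that of exons 4 and 5 lie outside it. The deletion was not read from these counts, which list annotated junctions only.

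Uniquely mapped junction reads numbered 9927809 in HepG2 and 7487508 in K562, or 82.7% and 74.0% of all mapped junction reads. The lines matched their labels at 8 marker genes. ALB, APOB, AFP and TF had between 113638 and 371360 reads in HepG2 and between 17 and 162 in K562. GYPB, RHAG, GATA1 and LMO2 had 0 reads in HepG2 and between 587 and 7365 in K562. Reads below are uniquely mapped, and ratios are HepG2 over K562 after TMM scaling, with exact 95% conditional binomial intervals in parentheses. With 1 table per line there is no replicate check and no test. Intervals cover counting error only, and since no molecular identifiers are described, reads may be copies of 1 molecule. The amount of a messenger RNA and its translation cannot be told apart from footprints alone, nor can fewer cells and less RNA per cell. The lines also differ in tissue of origin, so liver lineage and the state of the Wnt pathway cannot be told apart.

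The call for a gene required the whole interval to lie past 2-fold. Of the 10 genes, 5 were higher in HepG2 (AXIN2, NKD1, LGR5, TBX3 and GLUL), 2 were lower in HepG2 (APC and LEF1), and CTNNB1, AXIN1 and TCF7L2 passed neither limit. Of all 10956 genes with 20 or more reads, 21.9% were higher in HepG2 and 16.8% higher in K562 by the same rule. Levels are given per coding junction as RPM, reads per 1000000 of the effective depth of a table. In HepG2 the level was highest for CTNNB1, followed by GLUL, LGR5, NKD1, AXIN2, TBX3, TCF7L2, APC, AXIN1 and LEF1. The intervals of APC and AXIN1 overlapped in that order. In K562 the order was CTNNB1, GLUL, LEF1, APC, AXIN1, TCF7L2 and TBX3, and AXIN2, NKD1 and LGR5 had no unique read. There, APC overlapped with AXIN1 and AXIN1 with TCF7L2.

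**Figure D1:**
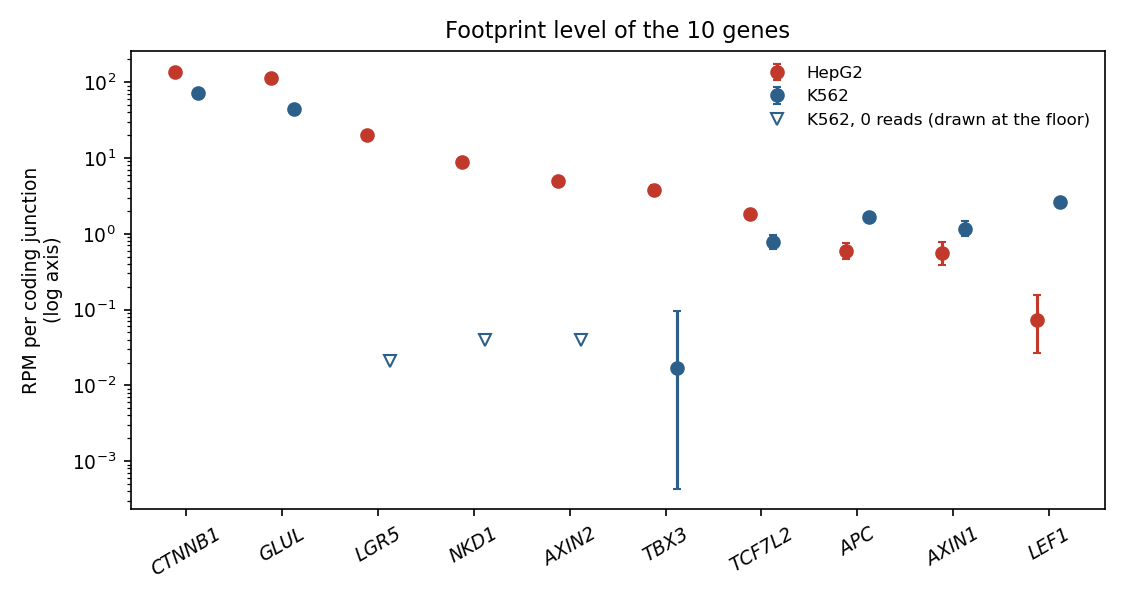
Footprint level of the 10 genes in HepG2 (red) and K562 (blue), as unique reads per coding junction in RPM on a log axis, with exact Poisson 95% intervals. CTNNB1 stood at 136 RPM in HepG2 and 71.3 RPM in K562, and open triangles mark genes without a K562 read, drawn at the level of 3 reads.

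CTNNB1 (ENSG00000168036, chromosome 3, 41194741 to 41260096, plus strand, GRCh38) had 14973 HepG2 reads and 8211 K562 reads. The ratio was 1.83 (1.78 to 1.88), short of 2-fold. The median log2 ratio of 600 genes on chromosome 3 was 0.32, against 0.87 for CTNNB1. The gene total hides differences along the transcript. Its most-read coding transcript has 16 exons (ENST00000396185.8), the start codon lies in exon 2, and exon 3 is 228 bases long and holds codons 5 to 81. Exon 3 is printed here because it carries the phosphorylated residues and is cut by the known deletion, and the codons of serine 33, serine 37, threonine 41 and serine 45 are in capitals. The splice boundaries at either end of exon 3 are shown with 15 bases on each side, with the downstream exon in capitals. These exon sequences, and those of LGR5 and TBX3 further on, are from GENCODE 29 transcripts. A footprint counted at a boundary has to cross from lower case to capitals.

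CTNNB1 exon 3 (chr3:41224526-41224753): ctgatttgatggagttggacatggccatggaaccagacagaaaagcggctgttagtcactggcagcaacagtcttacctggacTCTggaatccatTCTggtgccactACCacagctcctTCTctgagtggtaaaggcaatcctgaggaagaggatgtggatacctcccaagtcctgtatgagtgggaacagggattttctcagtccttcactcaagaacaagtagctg
CTNNB1 exon 2 to exon 3: caatggctactcaagCTGATTTGATGGAGT
CTNNB1 exon 3 to exon 4: aagaacaagtagctgATATTGATGGACAGT

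At the boundary of exons 3 and 4, which the deletion removes from 1 allele, HepG2 had 798 reads and K562 had 1123, a ratio of 0.714 (0.651 to 0.782). This was the only coding junction of CTNNB1 with a ratio below 1. Exon 2 to 3 had 3653 HepG2 reads and 2683 K562 reads, a ratio of 1.37 (1.30 to 1.44). Exon 4 to 5 had 306 HepG2 reads and 123 K562 reads, a ratio of 2.50 (2.02 to 3.11).

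The 10 later coding junctions, from exon 5 to exon 15, all had more reads in HepG2. Their ratios ran from 1.53 at exon 6 to 7 to 6.12 at exon 7 to 8, with a median of 2.61 and a standard deviation of 0.59 on the log2 scale over junctions. Exon 7 to 8, with 2144 reads in HepG2 and 352 in K562, stood apart from the others, and without it the highest ratio was 3.996 at exon 11 to 12. None (0 of 10) lay below the ratio of exon 3 to 4 or of exon 2 to 3. The most-read later junction was exon 13 to 14, with 2065 reads in HepG2 and 1069 in K562.

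Summed over the 3 junctions that touch exons 3 and 4, HepG2 had 4757 reads and K562 had 3929, a ratio of 1.22 (1.17 to 1.27). The 10 later junctions had 9917 HepG2 reads and 3808 K562 reads, a ratio of 2.62 (2.52 to 2.72). Relative to later junctions, the reads at exons 3 and 4 in HepG2 were thus at 46.5% (43.9 to 49.2) of the proportion in K562. This value needs no scaling between the tables. Across 3753 genes, the same contrast of junctions 2 to 4 of a transcript with its later coding junctions was past 1.5-fold lower in HepG2 in 5.86%. It was as low as in CTNNB1 or lower in 177 genes (4.72%), CTNNB1 itself included.

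The 3 junctions did not share 1 value. Here and below, the HepG2/K562 ratio at a junction is given as a percentage of that ratio at the junctions it is set against. Exon 3 to 4 was at 27.3% (24.7 to 30.1) of later junctions, exon 2 to 3 at 52.3% (49.1 to 55.7) and exon 4 to 5 at 95.5% (77.0 to 119). Set against its downstream neighbor, exon 3 to 4 was at 28.6% (22.5 to 36.1) of exon 4 to 5, and set against its upstream neighbor at 52.2% (47.0 to 58.0) of exon 2 to 3. Across 1918 genes, junction 3 was past 1.5-fold lower in HepG2 in 7.4%. In 24 genes (1.25%), CTNNB1 itself included, it was as low as exon 3 to 4 of CTNNB1 or lower. Single later junctions of CTNNB1 also departed from the others, with exon 6 to 7 at 57.3% (47.4 to 69.4) and exon 7 to 8 at 271% (240.1 to 306) of the rest.

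**Figure D2:**
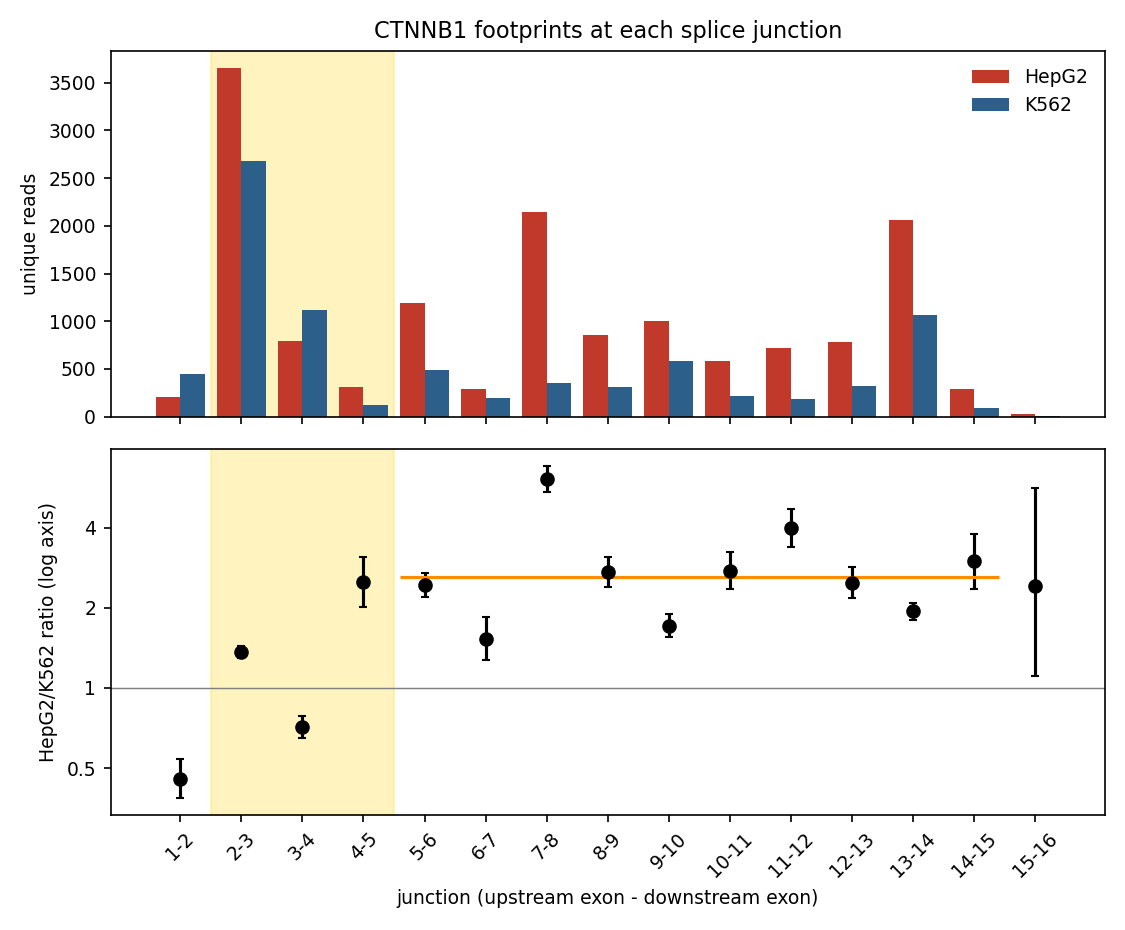
CTNNB1 footprints at the 15 junctions of its transcript, with unique reads in HepG2 (red) and K562 (blue) above and the HepG2/K562 ratio with its 95% interval on a log axis below. The shaded junctions touch exons 3 and 4, exon 3 to 4 lies at 0.714 while exon 4 to 5 lies at 2.50, and the orange line is the median of the 10 later junctions, 2.61.

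Position along the transcript went with the ratio in other genes too, and its part in the CTNNB1 values was not tested. Exon 2 to 3 lies 13 coding bases after the start of the reading frame. Over 307 junctions with 100 or more reads within 30 coding bases of the start, the median was 48.0% of the junctions beyond 495 coding bases (5th to 95th percentile, 20.7 to 107%), and 92.2% were below 1. The value of exon 2 to 3 stood near that median. Exon 3 to 4 lies after 241 coding bases, and over 1460 junctions at 200 to 300 coding bases the median was 98.9% (40.1 to 239%). Its 27.3% lay below the 5th percentile of those junctions. Exon 4 to 5 lies after 495 coding bases, and 1417 junctions at 400 to 495 bases had a median of 103% (41.1 to 235%).

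The first junction of CTNNB1 joins exons 1 and 2 in the 5′ untranslated region. It had 204 HepG2 reads and 449 K562 reads and was at 17.4% (14.7 to 20.7) of the later coding junctions. Over 481 junctions in 5′ untranslated regions the median was 48.8% (18.9 to 161%), and CTNNB1 lay just below the 5th percentile. The junction in the 3′ untranslated region, exon 15 to 16, had 24 HepG2 reads and 10 K562 reads. The comparison of single junctions with the rest of their gene counted a junction when the whole interval of the odds lay past 1.5-fold. By that rule 4 of 18 CTNNB1 junctions were counted, and 7 of 53 over the 5 genes with enough reads in both tables, against 10.4% of 75434 junctions of all genes. In CTNNB1 these were exon 1 to 2 and exon 3 to 4, lower in HepG2 at 0.239 (0.201 to 0.283) and 0.355 (0.323 to 0.391) of the rest. Exon 7 to 8 and exon 11 to 12 were higher in HepG2, at 3.73 (3.32 to 4.20) and 2.24 (1.90 to 2.66).

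Reads at annotated junctions outside that transcript were few. A junction from exon 2 into an alternative exon had 42 HepG2 reads and 11 K562 reads, and its partner into exon 3 had 10 and 1. The 2 routes into exon 3 are set by the same acceptor, where exon 2 to 3 took 3653 of 3663 reads in HepG2 and 2683 of 2684 in K562. An alternative first exon joined to exon 2 had 12 HepG2 reads and 2 K562 reads.

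The scaffolds of the destruction complex had few junction reads in either line, and APC passed the rule, with fewer reads in HepG2. AXIN1 (ENSG00000103126, chromosome 16, 287440 to 352673) had 45 HepG2 reads and 92 K562 reads. Its ratio of 0.491 (0.336 to 0.709) did not pass the rule. The level per coding junction was 0.557 RPM in HepG2 and 1.17 RPM in K562. APC (ENSG00000134982, chromosome 5, 112707498 to 112846239) had 72 HepG2 reads and 224 K562 reads. It was 3.10-fold lower in HepG2 (2.36 to 4.10), with a level of 0.593 RPM in HepG2 and 1.64 RPM in K562. The median log2 ratio of 493 genes on chromosome 5 was -0.26, and after centring on it the log2 ratio of APC was -1.37 in place of -1.63 and no longer passed the rule. Most APC coding sequence lies in its last exon, so junction reads sample the part before it. Of the 15 junctions of its transcript, the most-read, exon 6 to 7, had 9 HepG2 reads and 37 K562 reads, and only exon 14 to 15, with 10 reads in HepG2 and 9 in K562, and exon 12 to 13, with 1 in each, did not have fewer reads in HepG2.

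Of the nuclear partners of beta-catenin, LEF1 was lower in HepG2, and TCF7L2 had more HepG2 reads but did not pass the rule. LEF1 (ENSG00000138795, chromosome 4, 108047545 to 108168956), first known from lymphoid cells, had 7 HepG2 reads and 237 K562 reads. It was 33.7-fold lower in HepG2 (16.1 to 84.7). Its K562 reads lay on 14 junctions, with 78 at exon 9 to 10 and 49 at exon 2 to 3, and 81.2% of its mapped K562 reads were unique. TCF7L2 (ENSG00000148737, chromosome 10, 112950250 to 113167678), the main TCF factor of many epithelia, had 249 HepG2 reads and 117 K562 reads. Its ratio was 2.14 (1.71 to 2.69), with a lower bound short of 2-fold. The most-read TCF7L2 junction, exon 11 to 12, had 62 HepG2 reads and 48 K562 reads, while exon 2 to 3 had 32 in HepG2 and 4 in K562.

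The feedback genes AXIN2, NKD1 and LGR5 had no unique K562 read at any junction. AXIN2 (ENSG00000168646, chromosome 17, 65528563 to 65561647), a relative of AXIN1 that restrains beta-catenin, had 310 HepG2 reads and 0 K562 reads. It was 104-fold higher in HepG2 with 0 set to 3 reads, and the exact lower bound was 83.9. Folds below likewise set a count of 0 to 3 reads in that table and are given with the exact lower bound. AXIN2 reads in HepG2 were highest at the last junction, exon 10 to 11, with 163, and 58 and 54 lay at exon 5 to 6 and exon 3 to 4. Its level of 5.04 RPM per coding junction includes 3 junctions that it shares with another gene. NKD1 (ENSG00000140807, chromosome 16, 50548330 to 50649249), which binds dishevelled and dampens the signal, had 661 HepG2 reads and 0 K562 reads, 221-fold higher (lower bound 179.5). All 9 NKD1 junctions of the transcript had reads in HepG2, between 8 and 180.

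LGR5 (ENSG00000139292, chromosome 12, 71439770 to 71586310) encodes a receptor for R-spondins and marks stem cells in several tissues. It had 2867 HepG2 reads and 0 K562 reads, 960.1-fold higher in HepG2 (lower bound 780), and 1 further K562 read was mapped but not unique. Its level in HepG2 was 19.97 RPM per coding junction, below GLUL and above NKD1. All 17 coding junctions had reads in HepG2, with the fewest, 6, at exon 17 to 18 and the most, 375, at exon 9 to 10. Neighboring junctions differed widely, as at exon 8 to 9 with 28 reads.

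TBX3 (ENSG00000135111, chromosome 12, 114670254 to 114684164), a T-box transcription factor of developing liver and a target of beta-catenin there, had 257 HepG2 reads and 1 K562 read. The ratio was 258 (45.9 to 10237.5), with an upper bound that rests on the single K562 read. That read lay at exon 4 to 5, where HepG2 had 53. The most-read TBX3 junction was exon 5 to 6 with 73 reads in HepG2 and 0 in K562.

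**Figure D3:**
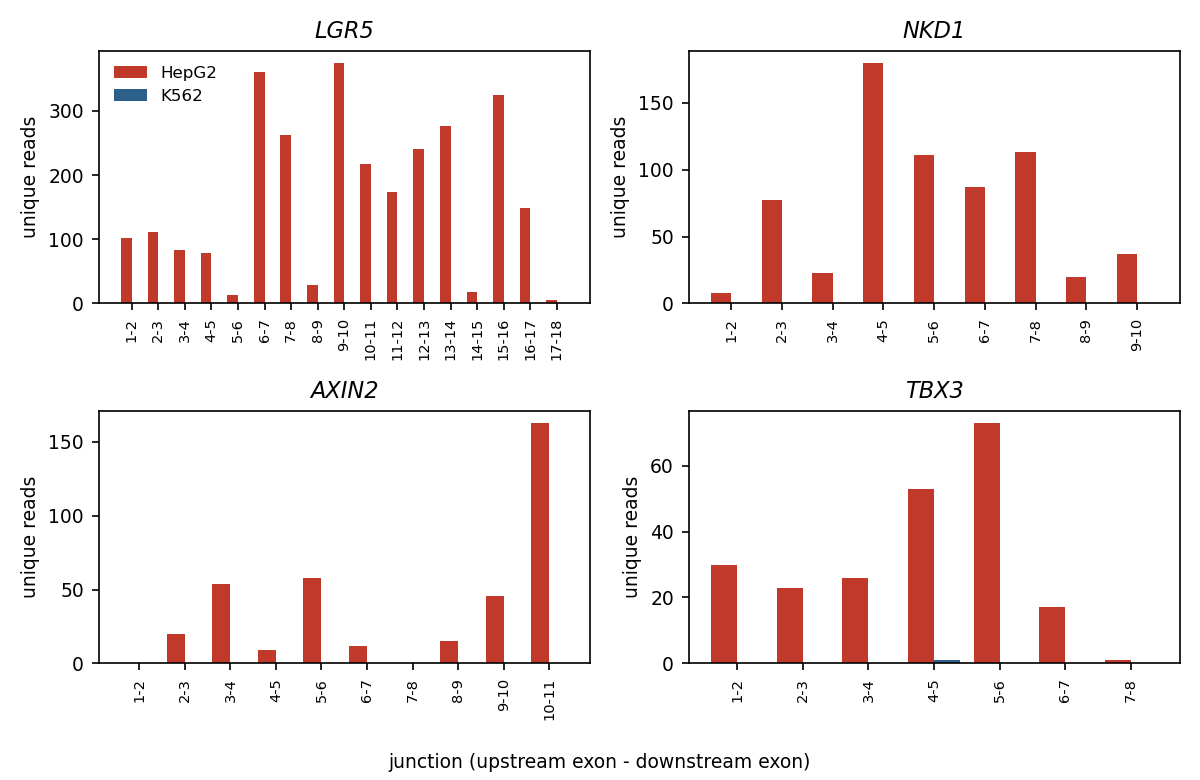
Unique footprint reads at each junction of LGR5, NKD1, AXIN2 and TBX3, with HepG2 in red and K562 in blue. Apart from 2 AXIN2 junctions at 0, every junction has a HepG2 bar, and the only unique K562 read, at TBX3 exon 4 to 5, is barely visible.

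Alternative exons of LGR5 and TBX3 could be read in HepG2 only, because K562 had too few reads. At the donor of LGR5 exon 7, 263 of 308 reads went to exon 8 and 45 (14.6%, 10.9 to 19.1) skipped it. At the acceptor of exon 9, the same 45 skipping reads were 61.6% (49.5 to 72.8) of 73. The share of skipping thus differed with the side on which it was read. Exon 8 has 72 bases, so that skipping keeps the reading frame. TBX3 exon 3 has 60 bases and also keeps the frame. It was joined by 23 of 57 reads (40.4%, 27.6 to 54.2) at the donor before it and by 26 of 60 (43.3%, 30.6 to 56.8) at the acceptor after it, so both sides gave close shares. Both exons are printed in capitals between 15 bases of the exons around them.

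LGR5 exon 8 (chr12:71561781-71561852): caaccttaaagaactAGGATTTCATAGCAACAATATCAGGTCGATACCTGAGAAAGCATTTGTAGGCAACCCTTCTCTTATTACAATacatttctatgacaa
TBX3 exon 3 (chr12:114679913-114679972, minus strand): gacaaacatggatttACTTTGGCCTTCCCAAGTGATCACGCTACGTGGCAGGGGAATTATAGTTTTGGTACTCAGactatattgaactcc

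GLUL (ENSG00000135821, chromosome 1, 182381704 to 182392206) encodes glutamine synthetase, which joins ammonia to glutamate and is the classic marker of hepatocytes around the central vein. Unlike the other targets it had many reads in both lines, with 4917 reads in HepG2 and 1936 in K562. The ratio was 2.55 (2.42 to 2.69), and scaling by total reads ended the call, with a log2 ratio of 0.93 in place of 1.35. The median log2 ratio of 1127 genes on chromosome 1 was -0.45. The level per coding junction was 115 RPM in HepG2 and 44.7 RPM in K562, second to CTNNB1 in each line.

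The ratio of GLUL varied along the transcript. Exon 2 to 3 had 1615 HepG2 reads and 199 K562 reads, a ratio of 8.15 (7.03 to 9.50), and stood above the rest of the gene at 4.27 (3.64 to 5.03). Exons 3 to 4, 4 to 5 and 5 to 6 had ratios of 2.23, 2.35 and 2.16. The last junction, exon 6 to 7, had 869 HepG2 reads and 643 K562 reads, a ratio of 1.36 (1.22 to 1.51), and was below the rest at 0.432 (0.382 to 0.488).

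GLUL also differed in the first exon that was joined to exon 2. Of the reads at the acceptor of exon 2, 134 of 154 (87.0%, 80.7 to 91.9) in HepG2 and 31 of 71 (43.7%, 31.9 to 56.0) in K562 came from the first exon farther from the coding part. The nearer first exon gave 20 of 154 (12.99%, 8.12 to 19.3) in HepG2 and 37 of 71 (52.1%, 39.9 to 64.1) in K562. The remaining junction had 0 of 154 reads in HepG2, which allows up to 1.95% with 0 set to 3 reads, beside an exact upper bound of 2.37%, and 3 of 71 in K562. A share was counted when it differed by 20 points and the intervals did not overlap, at sites with 20 or more reads in each table. Both GLUL shares were counted, 2 of 19 shares in 3 of the 10 genes, against 4.2% of 23690 shares in all genes. They share a splice site and make up 1 difference. The junction of the nearer first exon was also below all other GLUL junctions in HepG2, at an odds ratio of 0.210 (0.115 to 0.372).

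The 100 bases before each of the 2 starts are shown because the first exons differed between the lines. They come from RefSeq on GRCh38.p14 and run on the minus strand. Both strands of the 300 bases around each start were searched for CTTTGAT and CTTTGTT, the core letters that TCF and LEF factors bind. Neither GLUL window held a match, and 7.61% of 35116 promoters of all genes held at least 1. RefSeq promoters were at hand for 6 of the 10 genes, and 1 of their 10 promoters, of TCF7L2, held a match.

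GLUL farther start (chr1:182391791-182391890): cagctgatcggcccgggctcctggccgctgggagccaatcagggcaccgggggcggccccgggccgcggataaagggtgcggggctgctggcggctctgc
GLUL nearer start (chr1:182391342-182391441): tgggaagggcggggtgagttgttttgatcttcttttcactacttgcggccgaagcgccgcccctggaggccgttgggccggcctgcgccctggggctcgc

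**Figure D4:**
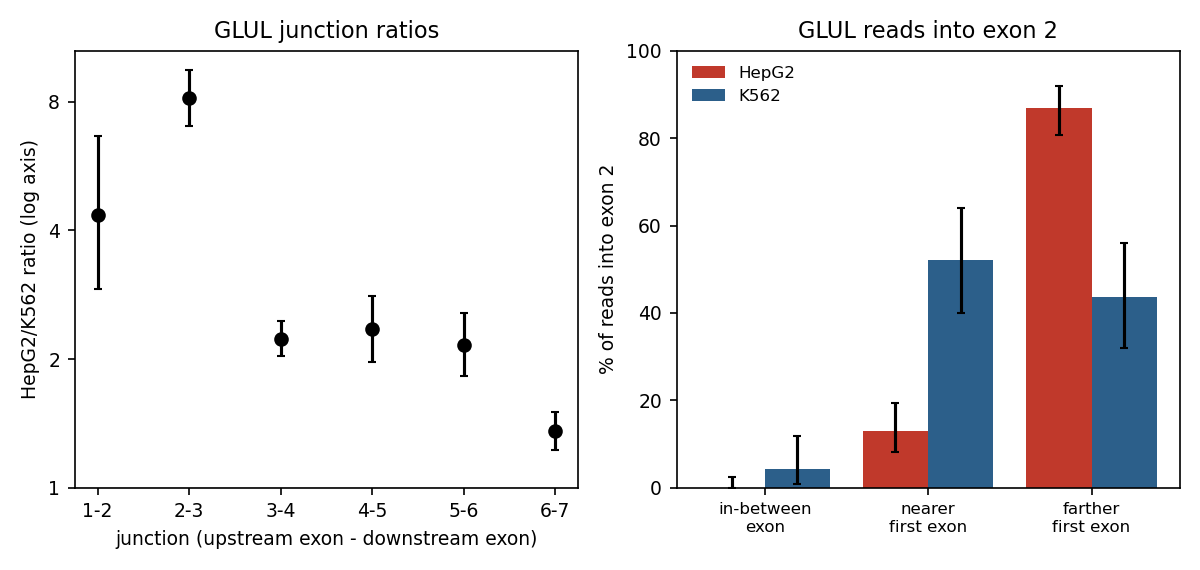
GLUL along its transcript, with the HepG2/K562 ratio of each junction and its 95% interval on a log axis at left and the share of reads into exon 2 by first exon at right, HepG2 in red and K562 in blue with exact binomial 95% intervals. The ratio was 8.15 at exon 2 to 3 and 1.36 at exon 6 to 7, and the farther first exon gave 87.0% of reads in HepG2 and 43.7% in K562.

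The rest of the pathway was read from 9 lists of 157 genes, of which 93 had 20 or more reads. Of these, 41 were higher in HepG2, 12 lower in HepG2 and 40 past neither limit, where 21.9% of all genes were higher in HepG2 and 16.8% lower by the same rule. The median log2 ratio was 0.97, against 0.01 over all genes. Without the 9 list genes that are among the 10, 36 of 84 were higher in HepG2 and 10 lower, with a median of 0.91. Genes with a count of 0 in 1 line enter these medians at the value that 3 reads give, and they passed the minimum of 20 reads through the other line alone. The lists share genes, so the counts of single lists below are not separate results. NOTUM, RNF43 and NKD1 stand in the inhibitor, general target and pericentral lists, and DKK1 and ZNRF3 in the inhibitor and general target lists.

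Ligands of the pathway were hardly read. Of 25 Wnt ligands, secretion factors and R-spondins, 2 had 20 or more reads. WNT10B had 0 HepG2 reads and 23 K562 reads, 7.63-fold lower in HepG2 (lower bound 5.72). PORCN, which acylates Wnt proteins, had 31 HepG2 reads and 26 K562 reads. Genes without an annotated junction of their own, as several frizzled receptor genes here, give no junction reads.

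Of 12 receptor and dishevelled genes, 4 were higher in HepG2, 1 was lower and 7 passed neither limit (median log2 ratio 1.02), beside 21.9% higher and 16.8% lower among all genes. LGR4, the relative of LGR5, had 1276 HepG2 reads and 112 K562 reads, a ratio of 11.4 (9.43 to 14.01). The coreceptor gene LRP5 had 463 HepG2 reads and 154 K562 reads, and LRP6 had 368 in HepG2 and 159 in K562. LRP5 passed the rule at 3.02 (2.51 to 3.65), and LRP6 did not at 2.33 (1.93 to 2.82). ROR2, a receptor for noncanonical Wnt signals, had 0 HepG2 reads and 97 K562 reads, 32.2-fold lower (lower bound 25.7).

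Inhibitors of the pathway were mostly higher in HepG2, at 8 of 10 genes (median log2 ratio 3.25), against 21.9% of all genes. DKK1, a secreted antagonist of LRP receptors, had 6326 HepG2 reads and 0 K562 reads, 2118.5-fold higher (lower bound 1722). NOTUM, which removes the lipid of Wnt proteins, had 2424 HepG2 reads and 22 K562 reads, a ratio of 111 (72.9 to 177). The ubiquitin ligases ZNRF3 and RNF43, which remove frizzled receptors and whose action R-spondins block through LGR receptors, had 527 and 86 reads in HepG2 and 55 and 7 in K562. Of the other two, NKD2, the relative of NKD1, was lower with 4 reads in HepG2 and 32 in K562. CHD8, a chromatin remodeler that restrains beta-catenin, had 1386 HepG2 reads and 817 K562 reads and passed neither limit at 1.70 (1.56 to 1.86).

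The counts called in the destruction and nuclear complexes did not exceed the all-gene shares of 21.9% and 16.8%. Of 19 destruction complex genes, 3 were higher in HepG2, 2 lower and 14 past neither limit (median 0.31). Besides AXIN2, the 3 hold TNKS2 and AMER1. AMER1, which recruits APC to the membrane, had 53 HepG2 reads and 1 K562 read, a ratio of 53.2 (9.15 to 2142). Counted at coding junctions only, or without its most-read junction, AMER1 fell under the minimum of reads and had no ratio. The genes higher in HepG2 then numbered 2 in place of 3. Most AMER1 reads thus lay at 1 junction and outside the coding junctions, and translation of its reading frame was not tested. SKP1, part of the ubiquitin ligase, was 2.46-fold lower in HepG2 (2.31 to 2.62), with 1344 reads in HepG2 and 3320 in K562, and passed neither limit under 4 of 10 alternatives. PPP2R1A had 3408 HepG2 reads and 2539 K562 reads. Of 15 nuclear genes, 3 were higher in HepG2, 2 lower and 10 past neither limit (median 0.11). Among the Groucho corepressors, TLE1 had 263 HepG2 reads and 0 K562 reads, and TLE2 had 1 in HepG2 and 48 in K562. PARP1 and CDC73 had ratios of 0.524 and 0.910.

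Most known targets of the pathway with enough reads were higher in HepG2. Of 24 general Wnt targets, 17 had 20 or more reads and 7 did not. Of the 17, 14 were higher in HepG2 and 3 lower (median 5.47), against 21.9% and 16.8% of all genes, and without the members 11 of 13 were higher. TNFRSF19 had 1348 HepG2 reads and 3 K562 reads, a ratio of 451 (154 to 2192). BMP4, SP5 and the cyclin gene CCND1 had 503, 61 and 824 reads in HepG2, against 0, 0 and 113 in K562. The 3 lower targets were LEF1, MYC and CD44. MYC, which is driven by many pathways, had 606 HepG2 reads and 2318 K562 reads, and the adhesion receptor gene CD44 had 1 in HepG2 and 1628 in K562.

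Of 20 genes of pericentral hepatocytes or of liver tumors with active beta-catenin, 14 had 20 or more reads. The other 6 had at most 2 reads in HepG2 and 0 in K562. Of the 14, 12 were higher in HepG2 and 0 lower (median 6.74), against 21.9% and 16.8% of all genes, and without the members 7 of 9 were higher. ACSS3, an acyl-CoA synthetase, had 2239 HepG2 reads and 1 K562 read, ODAM had 2295 and 2, and the glutamate transporter gene SLC1A2 had 519 and 0. OAT, which converts ornithine, had 1780 HepG2 reads and 1790 K562 reads. The pericentral enzymes CYP2E1 and CYP1A2 had 0 and 1 reads in HepG2 and 0 in K562. Genes of periportal hepatocytes, which are low in liver where beta-catenin is active, were also higher in HepG2 at 8 of the 10 with 20 or more reads (median 4.98). Of these 10, 1 was lower and 1 passed neither limit, against 21.9% higher and 16.8% lower among all genes. The 8 higher genes included PCK1, with 276 reads in HepG2 and 0 in K562, SOX9, with 1094 and 1, and CPS1, with 404 and 60. For SOX9 a single junction held most reads, and leaving it out gave a log2 ratio of 4.35 in place of 10.10. The adhesion complex, the other known place of beta-catenin in the cell, had 3 of 9 genes higher in HepG2 and 2 lower (median 1.06), beside the same 21.9% and 16.8%. CDH2 had 2065 HepG2 reads and 7 K562 reads, and CDH1 95 and 0. CTNNA1 and CTNND1, which bind the cadherin complex, had ratios of 1.57 and 2.09 and did not pass the rule.

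**Figure D5:**
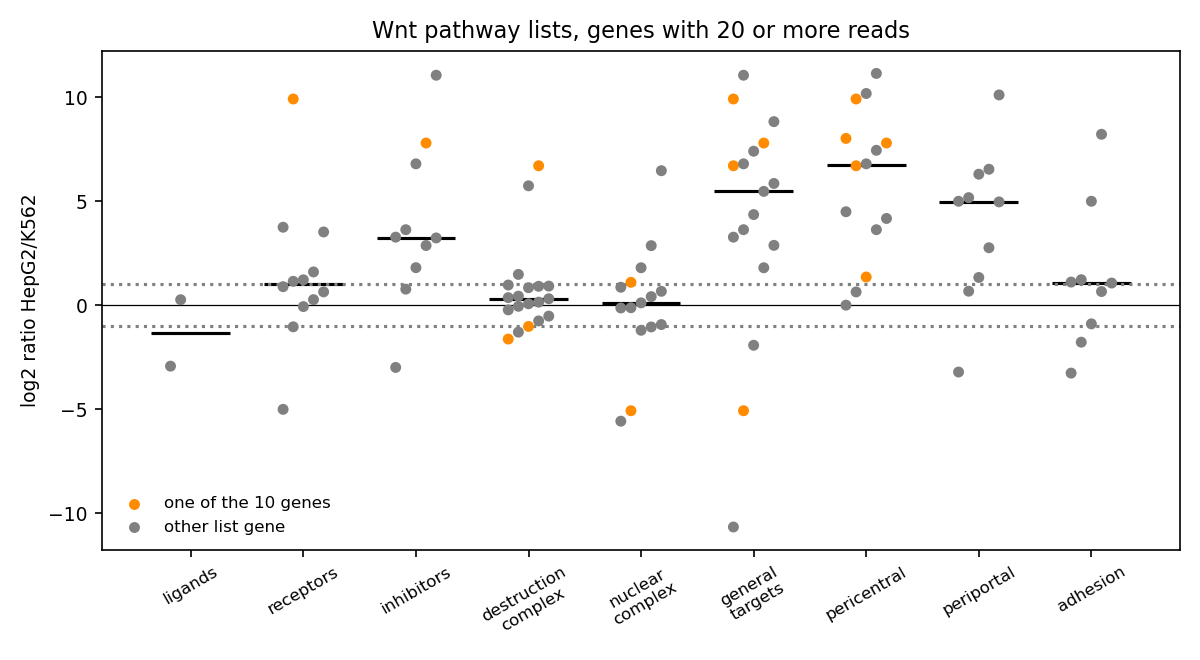
Log2 HepG2/K562 ratios of the genes with 20 or more reads in each of the 9 Wnt pathway lists, with the 10 genes studied in orange, other list genes in grey and list medians as bars. The target, pericentral, periportal and inhibitor lists had medians between 3.25 and 6.74, and those of the destruction and nuclear complexes were 0.31 and 0.11, while dotted lines mark 2-fold.

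The list genes with ratios nearest to the 1.83 of CTNNB1, among those with 100 or more reads, were DVL2, GSK3B and CTBP1. DVL2, a dishevelled protein, had 254 HepG2 reads and 138 K562 reads (1.85). GSK3B, a kinase of the destruction complex, had 574 in HepG2 and 308 in K562 (1.87), and CTBP1, a corepressor, had 791 in HepG2 and 438 in K562 (1.81). This likeness is over 2 tables only.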

How the data were processed

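Ribosome profiling was carried out in 2 samples each of HepG2 and K562. The submitters' processing notes name cutadapt, Bowtie2, STAR 2.6.0 and the build GRCh38; the annotation release and the junction counter: not given in the sources used here. Per the file headers, the authors deposited, for each annotated splice junction, the raw count of uniquely mapped reads and that of all mapped reads. Each line has 1 table that pools both samples, so no standard deviation or test across samples was computed.

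Junctions were matched to GENCODE 29 introns, exactly for 350016 (99.8%). Gene totals are sums of unique reads at junctions of 1 gene, which leaves out 6033 junctions, and a gene needed 20 reads in the tables together. TMM factors came from edgeR 4.0.16. Ratios have exact 95% conditional binomial intervals (Clopper-Pearson, scipy 1.17.1), and a count of 0 was set to 3 reads. The CTNNB1 and single-junction contrasts are odds ratios with exact conditional intervals. The single-junction rule took junctions with 10 or more reads in genes with 100 or more, and with 20 or more in each table. For the CTNNB1 contrast in other genes, 100 or more reads were needed at the early junctions and at the later ones. The later ones also needed 20 or more reads in each table. Levels divide unique reads at coding junctions of the most-read coding transcript by their number and the effective depth. The gene ratio and single-junction rules, with their intervals, were tested on simulated counts, and the other steps were not.

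The members, lists, limits and alternatives were chosen with earlier results of these data known. Named genes were, by rule, the 10 members, the 2 most-read genes of each list, up to 2 genes per list past 2-fold with the largest ratios, the 3 list genes nearest to CTNNB1, and each member junction counted by a rule. LRP5, LRP6, ZNRF3, RNF43, NKD2, CHD8, TNKS2, TNFRSF19, BMP4, SP5, CCND1, SLC1A2, CYP2E1 and CYP1A2 were named after their values were seen. The alternatives were total-read scaling, DESeq2 1.42.0 size factors, centring by chromosome, all mapped reads, minimums of 100 and 1 reads, 99% intervals, other choices of junctions, and other read minimums and limits for shares and single junctions.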

Additional observations from a re-analysis of the deposited data

Results flagged for a closer look

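Some reads of 2 of the genes lay outside the gene comparison because their junctions are assigned to a second gene as well. At 3 such junctions of AXIN2 (20, 54 and 9 reads at exons 2 to 3, 3 to 4 and 4 to 5) HepG2 had 83 unique reads and K562 had 0. At 2 such junctions of APC, HepG2 had 1 unique read and K562 had 6. Counting these junctions for each gene left both calls in place. Reads at these junctions cannot be divided between the overlapping genes.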

How the results depend on the processing

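No paired analysis was possible because each table pools both samples of a line and the columns carry no replicate, and for the same reason no sample could be left out. Single-gene ratios under the alternatives were computed only for the 10 members and the list genes named by rule, not for those named later. No such gene past a limit changed direction. Among genes past neither limit, PORCN, at a log2 ratio of 0.26, was at -0.16 with total-read scaling and -0.54 without its most-read junction, CDC73, at -0.14, was at 0.32 with centring by chromosome, and OAT, near 0, changed sign under 3 alternatives, up to 0.06. The contrast of exons 3 and 4 of CTNNB1 with later junctions, 0.465 as an odds ratio, was 0.273 with exon 3 to 4 alone, 0.542 with exons 2 to 3 and 4 to 5 only, 0.422 without the most-read later junction, 0.364 against the 4 junctions next after exon 5, 0.509 against all other junctions, 0.525 as a median of single ratios and 0.473 with all mapped reads. Without exon 7 to 8, a choice made after seeing the data, it was 0.538. For exon 3 to 4 alone, 0.273 became 0.214 against the 4 next junctions and 0.316 without exon 7 to 8. With centring by chromosome, 1 member in place of 2 was higher in K562. With a minimum of 100 reads, 6 in place of 12 list genes were higher in K562, since fewer genes were tested. Total-read scaling moved the median log2 ratio of all genes by -0.42 and the HepG2 share of all calls to 42.0%, against 56.7%; GLUL then lost its call at 0.93. Over 10 alternatives, log2 ratios ran from 0.46 to 0.99 for CTNNB1, 0.93 to 1.80 for GLUL, 0.68 to 1.40 for TCF7L2, -2.05 to -1.37 for APC, -1.44 to -0.88 for AXIN1, -5.49 to -4.93 for LEF1, 9.49 to 11.53 for LGR5, 7.28 to 7.86 for NKD1, 5.57 to 7.03 for AXIN2 and 7.48 to 8.17 for TBX3. CTNNB1 exon 11 to 12, at 2.24 of the rest, did not pass 2-fold, PARP1 became lower in HepG2 with total-read scaling, at a log2 ratio of -1.35, and CTNND1 higher with centring by chromosome and with all mapped reads, at 1.31 and 1.17 (SKP1 lost its call under 4 alternatives, at -1.03 to -0.62). Without their most-read junction DKK1, SKP1 and MYC were at 10.06, -2.86 and -2.68, in place of 11.05, -1.30 and -1.93. The cause of these shifts was not tested. Depth limits AXIN1, APC and LEF1 in HepG2, where single junctions held at most 10 reads.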

Other observations

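Several sites with alternative junctions in the less-read genes had too few reads in 1 line for a comparison or did not meet the rule. At a donor near the end of TCF7L2, whose last exons are known to vary between tissues, 15 of 45 reads (33.3%) in HepG2 and 16 of 29 (55.2%) in K562 went straight to the last exon. At the same donor 22 of 45 reads (48.9%) in HepG2 and 9 of 29 (31.0%) in K562 went to the next exon, and the intervals overlapped in both cases. At a donor of APC, 1 of 10 reads in HepG2 and 18 of 39 (46.2%) in K562 joined an additional coding exon. At the acceptor after that exon, only 1 of 10 reads in HepG2 and 2 of 23 (8.7%) in K562 came from it. The K562 share thus differed with the side on which it was read. In LEF1, 42 of 51 K562 reads (82.4%, 69.1 to 91.6) at the donor of exon 10 went to exon 11, and 9 skipped it. At the acceptor after exon 11, the same 9 skipping reads were 60% (32.3 to 83.7) of 15, and 6 (40%) came from exon 11. The LEF1 share in K562 thus also differed with the side on which it was read. The junction after exon 11 lies in the 3′ untranslated region of the transcript. Of 74 mapped K562 reads at exon 10 to exon 11, 42 were unique. HepG2 had no unique reads at this donor or acceptor. In AXIN2, which had no K562 reads, 10 of the 14 HepG2 reads (71.4%, 41.9 to 91.6) into exon 2 came from 1 of the 3 first exons with reads there.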
